A study of Mus musculus with 23 samples.

Results

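The microRNA locus mir-28a was followed through 23 small RNA libraries, each from 1 mouse retina at postnatal day 90. It is 1 of 903 rows of mature miRNA in the deposited counts. The row was chosen by its read level in treated and uninjected retinas and by their relation to rRNA content, so those levels are given as a description, with no test. All retinas but the wild-type ones came from mice with 1 P23H rhodopsin knock-in allele (P23H+/- KI). These mice had received DNA nanoparticles with the genomic form of mouse rhodopsin (mouse gRho, 11 libraries of 7 mice) or of human rhodopsin (human gRHO, 3 libraries of 2 mice), had been injected with saline (2 libraries of 1 mouse), or were left uninjected (5 libraries of 3 mice). Wild-type C57B retinas (WT, 2 libraries, counted as 2 mice) carried no P23H allele and were untreated. The groups below are called treated where mice received nanoparticles or saline. The labels do not give the route of injection, the dose or the time between treatment and collection. Mouse and eye were read from the sample titles, which is an inference. All uninjected titles share a leading number, as do the human gRHO titles, and no such number recurs in another group, so treatment and housing cannot be told apart if these numbers are cages.

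P23H rhodopsin misfolds in the endoplasmic reticulum of rods, and carriers develop retinitis pigmentosa, a degeneration that begins with rods. A miRNA is cut from a hairpin into a 5p and a 3p arm, and the seed near the 5′ end of the loaded arm pairs with target mRNAs. miR-28 is known from germinal centre B cells, where it restrains signalling of the B cell receptor. Its relatives are miR-708 and miR-151. miR-708 is known in mouse cells as a miRNA induced by the stress factor CHOP that limits rhodopsin production when the endoplasmic reticulum is overloaded. miR-151 is known in human cancer cells for roles in migration.

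The mature sequences below show which of these miRNAs share a seed, and so could share targets. They are RefSeq's, on GRCm38.p6, written 5′ to 3′ with the seed (bases 2 to 8) in capitals.
mmu-miR-28a-5p: aAGGAGCUcacagucuauugag
mmu-miR-708-5p: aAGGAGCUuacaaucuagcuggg
mmu-miR-28b: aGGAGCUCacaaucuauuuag
mmu-miR-28a-3p: cACUAGAUugugagcugcugga
mmu-miR-708-3p: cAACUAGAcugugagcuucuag
miR-28a-5p and miR-708-5p have the same seed, and of 1679 mature mouse miRNAs in the RefSeq table only these 2 carry it. They are alike in their first 8 bases and have the same base at 16 of 22 positions. miR-28b holds a run of 11 bases of miR-28a-5p, but starts 1 base further in, so its seed differs. The 3p arms of miR-28a and miR-708 have different seeds. The mir-28a row of the deposited counts names no arm, so it is not known which of its 2 arms the values below count.

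The Mir28a hairpin lies at chr16:24827855-24827940 on the plus strand (GRCm38, GENCODE M21), with the 5p arm at chr16:24827868-24827889 and the 3p arm at chr16:24827908-24827929. Also on the plus strands of their chromosomes, miR-708-5p lies at chr7:96249450-96249472, miR-708-3p at chr7:96249496-96249517 and miR-28b at chr8:73016523-73016543. Mir28a sits within the protein-coding gene Lpp, on the same strand, and overlaps none of its annotated exons, so it is intronic. Lpp encodes a LIM-domain protein of focal adhesions and cell contacts that is prominent in smooth muscle. Mir708 and Mir151 are likewise intronic and on the strand of their hosts, Tenm4 on chromosome 7 and Ptk2 on chromosome 15. The build used by the authors is not given in the sources used here.

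The depth of a library, in reads of mature miRNA, was 5968388 at the lowest and 16048954 at the highest, and CPM, counts scaled to depth, refers to this total. The rows for retinal cells were present in every group: the summed rows of the photoreceptor cluster mir-183, mir-96 and mir-182 had medians between 582 and 773 CPM. A pair of libraries stood lowest for these rows, with 52.9 CPM in the right eye of mouse gRho mouse 1 and 198 CPM in uninjected mouse 2. The rRNA share of aligned reads was between 3.00% and 6.20% in 6 libraries, 3 of them uninjected and 3 mouse gRho, and between 0.201% and 0.878% in the other 17. The fold changes of mir-28a against uninjected mice, and of uninjected against WT mice, are given with and without either set of libraries.

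The mir-28a row held between 126 and 663 reads per library, 7670 in all, and ranked 99 of 903 rows by its mean CPM. It did not jump between levels, as many rows of the deposited counts did. The widest gap between neighbouring libraries was 0.27 on the log2 scale. A single library's 95% counting interval (exact Clopper-Pearson) ran, for example, from 42.6 to 51.3 CPM around 46.8 CPM. Such intervals cover counting error only.

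mir-28a was highest in uninjected P23H mice. In mouse gRho mice its level was 33.6, 30.1, 19.1, 27.98, 40.5, 26.0 and 24.5 CPM. In human gRHO mice it was 34.04 and 19.7 CPM, and in the saline mouse 22.9 CPM. Uninjected mice had 43.2, 65.0 and 52.2 CPM. WT mice had 34.8 and 26.2 CPM. Each of the 10 treated mice thus lay below each of the 3 uninjected mice, with the closest values at 40.5 CPM in mouse gRho mouse 5 and 43.2 CPM in uninjected mouse 1. The same separation in this direction was seen in 7 of the 382 rows tested, or 1.83%, and nothing is read from it, since these values chose the row. In whole retinas, fewer cells of a type and less of a miRNA per cell cannot be told apart. The mix of tissue also differed between libraries. Muscle rows summed to 653 CPM in the lowest mouse gRho library and 92779 CPM in the highest WT library, and their part was not tested. With trimmed-mean (TMM) scaling the separation held narrowly, at 40.9 CPM in mouse gRho mouse 5 and 41.5 CPM in uninjected mouse 3, and 1.83% of rows again showed it.

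Single libraries overlapped where mice did not. Over the 11 mouse gRho libraries the level was 16.3 CPM at the lowest, 26.0 at the median and 46.8 at the highest. The human gRHO libraries had 38.2, 29.9 and 19.7 CPM, and the saline libraries 20.5 and 25.5 CPM. Uninjected libraries had 32.8, 54.1, 65.0, 63.9 and 41.0 CPM. The lowest uninjected library, the right eye of mouse 1, thus fell among the treated and WT ones, and mouse gRho mouse 1's right eye, with 46.8 CPM, fell among the uninjected ones. That eye and uninjected mouse 2 are the libraries poor in photoreceptor rows, and both were high in mir-28a.

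**Figure D1:**
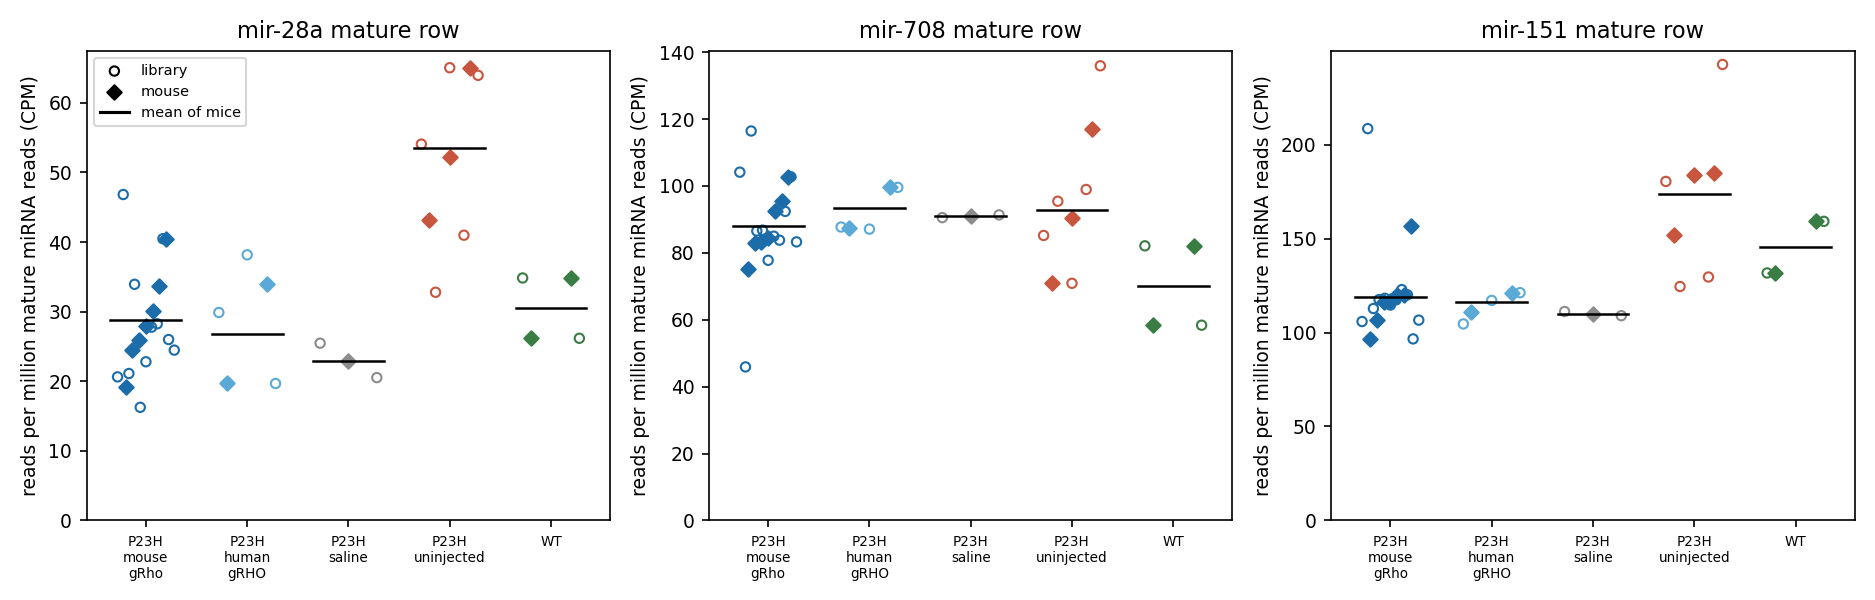
Levels of the mature rows of mir-28a, mir-708 and mir-151 in CPM of mature miRNA reads (y axes from 0), by group, with open circles for libraries, diamonds for mice (eyes summed) and a line for the mean of mice. For mir-28a the uninjected mice, at 43.2 to 65.0 CPM, lie above all treated and WT mice, while single libraries overlap.

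In order of the mean over mice, uninjected retinas came first at 53.5 ± 10.97 CPM (SD, n = 3), then WT at 30.5 ± 6.1 CPM (SD, n = 2), mouse gRho at 28.8 ± 6.9 CPM (SD, n = 7), human gRHO at 26.9 ± 10.2 CPM (SD, n = 2) and the saline mouse at 22.9 CPM. Among the last 4 groups, neighbours in this order differed by less than their spread. With TMM scaling the WT mice, at 35.7 and 36.1 CPM, lay above both human gRHO mice and within the range of the mouse gRho mice, and uninjected mice averaged 46.4 ± 7.4 CPM (SD, n = 3).

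The fitted log2 fold change of mir-28a was -0.69 (SE 0.22) for mouse gRho against uninjected, -0.80 (SE 0.30) for human gRHO and -0.92 (SE 0.39) for saline. These 3 comparisons share the uninjected mice, so they are not separate observations of a difference. The median over the 382 rows was 0.08, 0.01 and -0.005 in the same comparisons. Saline stood at the low end with the nanoparticle groups, but it was a single mouse. Its standard errors and p-values here assume that it varies like the other groups. Without human gRHO mouse 1 the value for human gRHO against uninjected was -1.24, and without human gRHO mouse 2 it was -0.56. Without uninjected mouse 2 the value for mouse gRho was -0.55.

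Uninjected P23H mice were compared with WT to see how mir-28a stood relative to retinas without the mutation. All 3 uninjected mice lay above both WT mice, at 43.2 to 65.0 CPM against 26.2 to 34.8 CPM, and 22.5% of rows showed this separation in the same direction. The fitted log2 fold change was 0.37 (SE 0.30). It was 0.81 (SE 0.34) when CPM was left without TMM factors, which were 1.01 to 1.26 in uninjected and 0.734 to 0.964 in WT mice. That scaling moved the median of all rows by 0.43, and relative to the median mir-28a stood at 0.46 with TMM and 0.47 without. With TMM scaling 13.1% of rows showed the separation, mir-28a among them. The uninjected values are among those that chose the row, so no test is given. Marker rows of pigment epithelium with Mueller glia and of muscle parted between these groups, with only 2 WT libraries. The rows of photoreceptors, neurons, endothelial and mural cells, leukocytes, red blood cells and surface epithelium with lens and cornea overlapped. The pigment epithelium and Mueller glia rows (2 of 2 with reads) summed to 115 to 298 CPM in uninjected and 53.7 to 99.6 CPM in WT libraries. The muscle rows (5 of 5, of which 3 jumped between levels) summed to 860 to 39447 CPM in uninjected and 46146 to 92779 CPM in WT libraries. Their part in the mir-28a difference was not tested.

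Mouse gRho and human gRHO mice differed from WT in mir-28a by -0.32 (log2, SE 0.25) and -0.43 (SE 0.32). Without TMM factors these differences were -0.08 (SE 0.29) and -0.18 (SE 0.36). Relative to the median of all rows they stood at -0.31 and -0.45 with TMM, and at -0.33 and -0.43 without. Those differences also rest on mice whose values chose the row. Without human gRHO mouse 1 the value for human gRHO against WT was -0.87, and without human gRHO mouse 2 it was -0.11.

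The constructs were also set beside each other, as a description, since the levels of both groups were in view when the row was chosen. mir-28a measured 34.04 and 19.7 CPM in human gRHO mice, against 19.1 to 40.5 CPM in mouse gRho mice, so the human gRHO values fell within the mouse gRho range. The log2 fold change was -0.11 (SE 0.26), which does not show a like level under both constructs. The value was 0.20 without human gRHO mouse 2 and -0.55 without human gRHO mouse 1. In this comparison 0% of rows were called by edgeR, 11 had an unadjusted p under 0.05, and DESeq2 called 0.

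The fellow eyes of 8 mice were compared, a contrast that the choice of the row did not name. mir-28a measured 46.8 CPM in the right and 20.6 CPM in the left eye of mouse gRho mouse 1. It measured 33.9 and 21.1 CPM in those of mouse 2, 22.8 and 16.3 CPM in those of mouse 3, and 28.3 and 27.8 CPM in those of mouse 4. The right eye was thus the higher in all 4 mouse gRho mice with both eyes. In human gRHO mouse 1 the right eye had 38.2 and the left 29.9 CPM. In the saline mouse the right eye had 20.5 and the left 25.5 CPM. In uninjected mouse 1 the right eye had 32.8 and the left 54.1 CPM, and in uninjected mouse 3 the right eye had 63.9 and the left 41.0 CPM.

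The right eye was higher in 6 of 8 mice and the left in 2. Counting intervals of the eyes did not overlap in 6 of 8 mice, and overlapped in mouse gRho mouse 4 and the saline mouse. These intervals cover counting error only. The share of rows whose eyes part in this way was not counted, so nothing is read from that number of mice. The higher eye exceeded the lower by a median of 1.48-fold for mir-28a, beside 1.12-fold for mir-708 and 1.08-fold for mir-151. Such medians were not computed for the other rows. In a fit with a term for the mouse, the log2 fold change of right against left eye was 0.20 (SE 0.18, 95% interval -0.19 to 0.59, edgeR adjusted p = 0.965), and 0.08 without mouse gRho mouse 1. It was 0.05 without the mice that had an rRNA-rich library (mouse gRho mice 2 and 3 and uninjected mouse 3). Without uninjected mouse 1 it was 0.31. No row was called (0%) in that fit, with 12 at an unadjusted p under 0.05. DESeq2 was not run on the eyes.

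**Figure D2:**
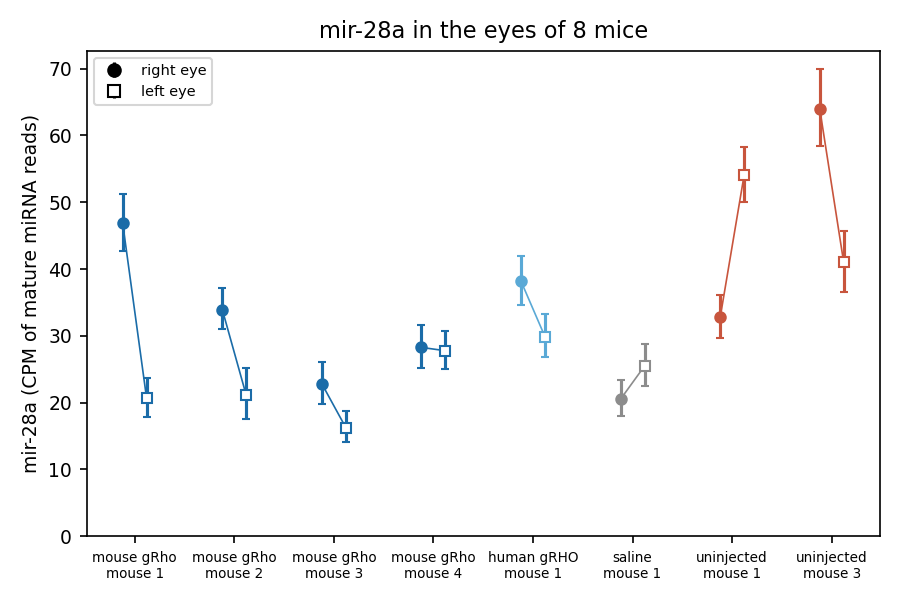
mir-28a in CPM of mature miRNA reads (y axis from 0) in the right eye (filled circle) and left eye (open square) of the 8 mice with both eyes, with 95% exact counting intervals as bars. The intervals of the eyes part in 6 of the 8 mice, among them mouse gRho mouse 1 (46.8 and 20.6 CPM). They also part in both uninjected mice shown, in opposite directions. The intervals cover counting error only.

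The rRNA share of each library was set beside its mir-28a level. Both uninjected mice with the highest mir-28a were rich in rRNA. Their libraries had 65.0 CPM at 5.14% rRNA in mouse 2, and 63.9 CPM at 3.83% and 41.0 CPM at 3.00% in the eyes of mouse 3. The rRNA-rich mouse gRho libraries had 21.1 CPM at 6.20% in the left eye of mouse 2, 26.0 CPM at 4.85% in mouse 6 and 22.8 CPM at 3.08% in the right eye of mouse 3. Among these 6 libraries, each uninjected one thus lay above each mouse gRho one. This did not hold at low shares: the right eye of uninjected mouse 1, at 0.395% rRNA, had 32.8 CPM, below mouse gRho mouse 5 with 40.5 CPM at 0.383%. Nothing is read from the split among the rRNA-rich libraries, since these values chose the row. The eyes of uninjected mouse 3 are not separate replicates, and the share of rows split in this way was not counted. The part of rRNA content in the mir-28a levels was not tested. The 6 rRNA-rich libraries also had more tRNA and scRNA, at 1.34% to 3.30% and 3.87% to 7.11% of aligned reads, beside 0.175% to 0.439% and 0.317% to 0.793% in the other 17.

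Fellow eyes of unequal rRNA share did not move in 1 direction. In mouse gRho mouse 2 the rRNA-rich left eye had 21.1 CPM and the right eye, at 0.321% rRNA, had 33.9 CPM. In mouse gRho mouse 3 the rRNA-rich right eye had 22.8 CPM and the left eye, at 0.473% rRNA, had 16.3 CPM. Because the shares fall into separate clusters, no correlation over all mice is given. Among the 10 mice without an rRNA-rich library, Pearson's r between log2 rRNA share and log2 CPM of mir-28a was -0.15 and Spearman's rho -0.13, and r was 0.18 without the 2 mice of most extreme share. Of the 382 rows, 73.6% had an r at least as high in those mice. The relation is part of how the row was chosen, so no test is given. CPM and the share come from the same libraries and share their depth.

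Uninjected mouse 1 is the only uninjected mouse without an rRNA-rich library. Its eyes had 32.8 and 54.1 CPM, against 16.3 to 46.8 CPM in the 8 mouse gRho libraries, 19.7 to 38.2 CPM in the human gRHO libraries and 20.5 and 25.5 CPM in the saline libraries that were not rich in rRNA. Without the 6 rRNA-rich libraries the log2 fold change was -0.49 (SE 0.36) for mouse gRho against uninjected, -0.66 (SE 0.42) for human gRHO and -0.79 (SE 0.50) for saline, all resting on this 1 uninjected mouse. Against WT the uninjected value was 0.19 (SE 0.43). With the rRNA share as a covariate the values against uninjected were -0.76 (SE 0.23), -0.89 (SE 0.32) and -1.08 (SE 0.44), and uninjected against WT stood at 0.55 (SE 0.37). Without both libraries poor in photoreceptor rows the values against uninjected were -0.63 (SE 0.24), -0.67 (SE 0.31) and -0.80 (SE 0.39), and uninjected against WT stood at 0.20 (SE 0.31).

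**Figure D3:**
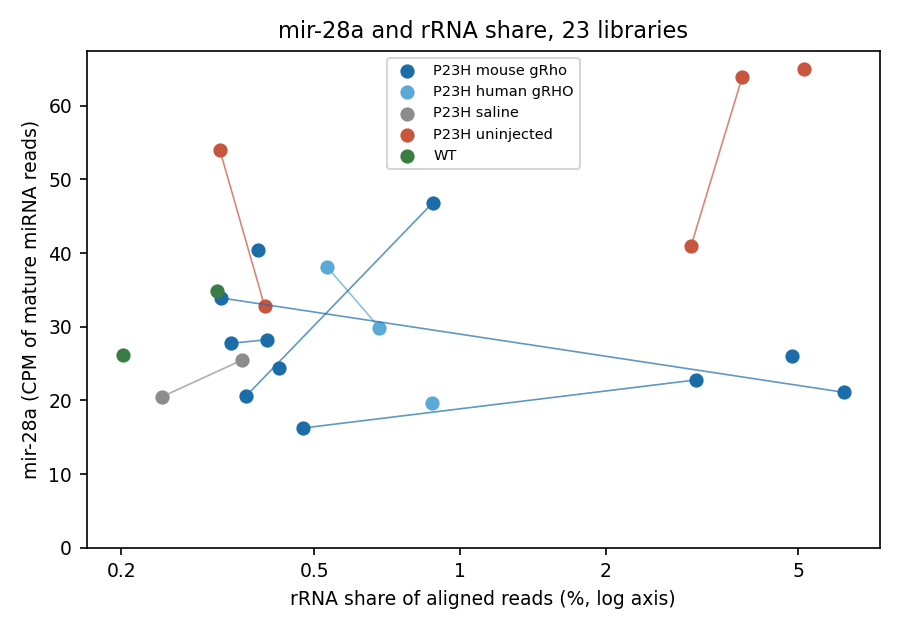
mir-28a in CPM of mature miRNA reads (y axis from 0) against the rRNA share of aligned reads (%, log axis) for 23 libraries, coloured by group, with lines joining the eyes of a mouse. At 3.00% rRNA or more the 3 uninjected libraries lie at 41.0 to 65.0 CPM and the 3 mouse gRho libraries at 21.1 to 26.0 CPM. These values chose the row, and the eyes of a mouse are not separate replicates.

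Reads counted as stem-loop of mir-28a are a class apart from the mature row. They come from the same locus and libraries, so they are not separate support for its levels. There were 4 such reads over the 11 mouse gRho libraries, 1 over the human gRHO, 2 over the saline, 10 over the 5 uninjected and 0 over the WT libraries. As CPM this was 0.036 in mouse gRho (95% counting interval 0.0099 to 0.093), against 0.21 in uninjected (0.10 to 0.39). It was 0.031 in human gRHO (0.0008 to 0.17) and 0.093 in saline (0.011 to 0.34), and both intervals overlapped that of uninjected. The 0 reads in WT allow up to 0.117 CPM, taken as 3 reads over the group. By the exact interval they allow up to 0.144 CPM, which also reaches into the uninjected interval. Of the 10 uninjected reads, 5 came from mouse 2 and 3 from the right eye of mouse 3, both rich in rRNA, and the remaining 2 from the right eye of mouse 1. Pooled over libraries, these values have no replicate error, and so few reads do not allow a test over mice. How often other stem-loop rows part in this way was not counted, and nothing is read from the values.

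The relatives of mir-28a were taken from a list of 5 loci. Of these, mir-28a, mir-708 and mir-151 had a mature row, and mir-28b and mir-28c had none under these names. mir-708, which shares the 5p seed of mir-28a, did not show the separation of treated from uninjected mice. It measured 75.2, 95.4, 82.8, 84.5, 92.4, 103 and 83.3 CPM in mouse gRho mice, 87.4 and 99.6 CPM in human gRHO mice and 91.0 CPM in the saline mouse. Uninjected mice had 90.4, 70.9 and 117 CPM, and WT mice 82.1 and 58.4 CPM. The lowest and the highest of the 13 P23H mice were both uninjected.

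The log2 fold change of mir-708 was 0.12 (SE 0.19, adjusted p = 0.982) for mouse gRho against uninjected, 0.20 (SE 0.25, adjusted p = 0.93) for human gRHO and 0.27 (SE 0.32, adjusted p = 0.91) for saline. The sign for mouse gRho turned to -0.077 without TMM factors, -0.019 without rRNA-rich libraries and -0.052 without uninjected mouse 2, and for saline to -0.030 without TMM factors. Between uninjected and WT mice mir-708 differed by -0.03 (SE 0.25, adjusted p = 0.965), with a sign that turned in most alternatives. It differed by 0.08 (SE 0.22, adjusted p = 0.997) between human gRHO and mouse gRho, and by -0.23 (SE 0.17, adjusted p = 0.965) between right and left eyes. The 95% interval ran from -0.28 to 0.53 for mouse gRho against uninjected and from -0.33 to 0.73 for human gRHO, so modest differences of either sign remain possible. Against WT mir-708 differed by 0.10 (SE 0.22, adjusted p = 0.82) in mouse gRho and by 0.17 (SE 0.28, adjusted p = 0.828) in human gRHO mice.

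mir-151 lay closer to the pattern of mir-28a. It measured 157, 116, 117, 120, 120, 96.6 and 107 CPM in mouse gRho mice, 111 and 121 CPM in human gRHO mice and 110 CPM in the saline mouse. Uninjected mice had 152, 184 and 185 CPM, and WT mice 132 and 159 CPM. Apart from mouse gRho mouse 1, at 157 CPM, all treated mice lay below all uninjected ones. With TMM scaling that mouse had 142 CPM, below the uninjected mice at 147 to 155 CPM, so mir-151 then separated fully, as did 1.83% of rows in this direction. That mouse's right eye, one of the libraries poor in photoreceptor rows, had 208 CPM and its left eye 106 CPM.

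The log2 fold change of mir-151 was -0.35 (SE 0.19, adjusted p = 0.913) for mouse gRho against uninjected, -0.39 (SE 0.26, adjusted p = 0.93) for human gRHO and -0.35 (SE 0.34, adjusted p = 0.91) for saline. None of these passed the threshold. Against WT the values were -0.57 (SE 0.22, adjusted p = 0.173) for mouse gRho and -0.62 (SE 0.29, adjusted p = 0.496) for human gRHO, which did not pass it either. Without WT mouse 1 they were -0.80 (adjusted p = 0.028), which passed, and -0.87 (adjusted p = 0.056), and without WT mouse 2 they were -0.15 and -0.27. Uninjected against WT stood at -0.23 (SE 0.26, adjusted p = 0.665), and at 0.25 without TMM factors and 0.24 without WT mouse 2. Human gRHO against mouse gRho stood at -0.04 (SE 0.23, adjusted p = 0.997) and right against left eye at 0.10 (SE 0.16, adjusted p = 0.965).

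With edgeR's adjusted p of 0.05, neither mir-708 nor mir-151 was called in any comparison with all mice kept. Of the 382 rows, 0% were called for mouse gRho, human gRHO and saline against uninjected, with 18, 10 and 13 rows at an unadjusted p under 0.05 and 0 calls by DESeq2 in each. Between uninjected and WT 1.57% were called, 6 rows, and DESeq2 called 11. edgeR's count was 60 without WT mouse 1 and 0 without WT mouse 2 or without any 1 of the uninjected mice. Against WT 3.14% were called for mouse gRho and 0% for human gRHO, with 38 rows at an unadjusted p under 0.05 and 5 calls by DESeq2 for human gRHO.

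**Figure D4:**
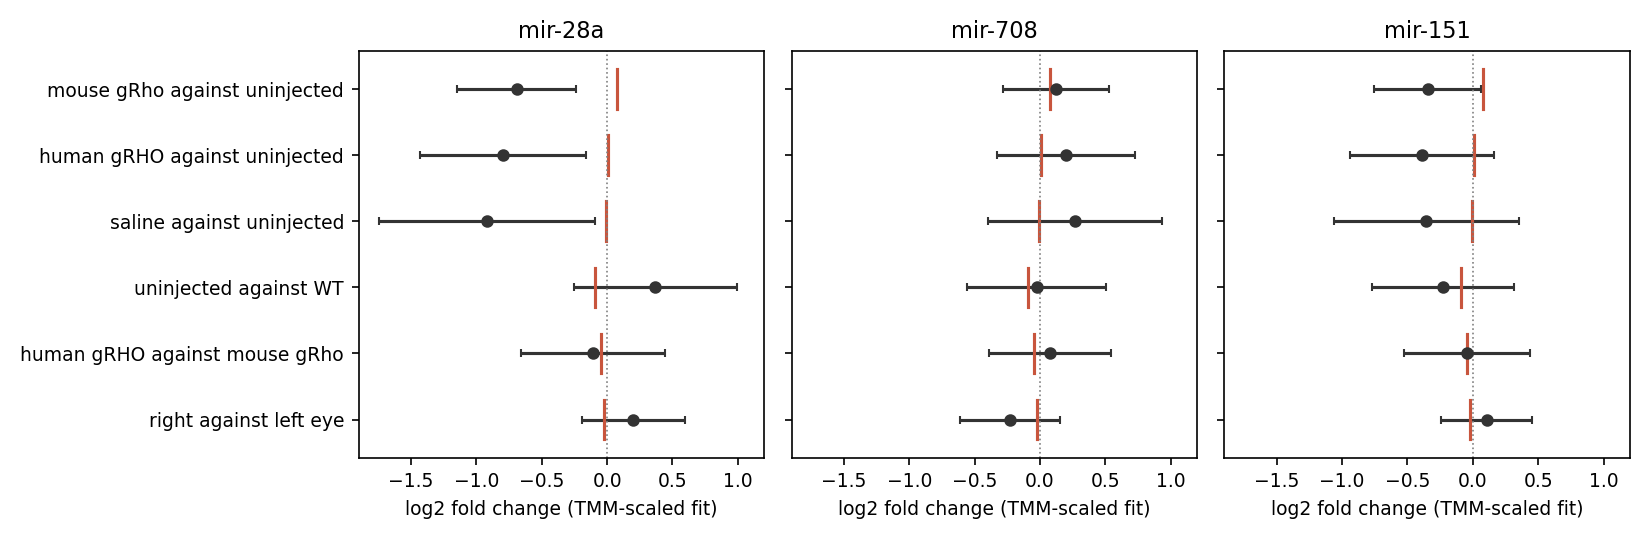
Log2 fold changes of mir-28a, mir-708 and mir-151 in 6 comparisons (x axis, edgeR fit with TMM scaling), as points with 95% intervals, with the median of 382 rows as a red bar and 0 as a dotted line. Against uninjected mice mir-28a lies at -0.69 to -0.92 and mir-151 at -0.35 to -0.39, while mir-708 lies at 0.12 to 0.27. The intervals of mir-28a between groups are descriptive, since these values chose the row.

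Ratios within a library do not depend on scaling. The library ratio of mir-28a to mir-708 reads had a median of 0.29 in mouse gRho (range 0.18 to 1.02), 0.34 in human gRHO (0.20 to 0.44), 0.25 in saline (0.22 to 0.28), 0.47 in uninjected (0.34 to 0.92) and 0.44 in WT libraries (0.42 to 0.45). The ratio of mir-28a to mir-151 reads had medians of 0.23 in mouse gRho (0.14 to 0.34), 0.29 in human gRHO (0.16 to 0.33), 0.21 in saline (0.19 to 0.23), 0.30 in uninjected (0.26 to 0.35) and 0.21 in WT libraries (0.16 to 0.26). The ranges of treated and uninjected libraries overlapped for both ratios in mouse gRho and human gRHO. In saline they did not, but the saline libraries are the eyes of 1 mouse. The mir-28a levels chose the row, and how often other ratios part in this way was not counted.

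The rows most like mir-28a were sought among 125 others with a mean of at least 10 CPM, by Pearson's r of log2 CPM over 15 mice, as a description. They were mir-142a (r = 0.80), mir-19b-2 (0.73), mir-322 (0.71), mir-151 (0.70) and mir-199b (0.68). After each group's mean was subtracted, r was 0.83, 0.54, 0.61, 0.23 and 0.61 in that order, so that of mir-151 rested mostly on the group means. For mir-708, r was 0.02, rank 88 of 125. mir-142a, a miRNA of blood-forming cells, ranged from 26.6 to 55.9 CPM in mouse gRho and from 17.2 to 38.2 CPM in human gRHO mice, was at 24.5 CPM in the saline mouse, and ranged from 34.5 to 48.0 CPM in uninjected and from 25.8 to 36.3 CPM in WT mice. Uninjected mice thus overlapped with mouse gRho, human gRHO and WT mice in mir-142a, and lay above the saline mouse. mir-19b-2 belongs to the miR-17/92 family and can share reads with its copy mir-19b-1, and mir-322 is the mouse counterpart of human miR-424. mir-199b, known from mesenchymal cells, can share reads with the mir-199a loci.

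Leukocyte rows were highest in some mouse gRho libraries, and overlapped between uninjected and all other groups except saline. The 3 listed rows, mir-142a, mir-150 and mir-223, all held reads in each group. Their summed level was 20.3 to 67.7 CPM in mouse gRho libraries, 20.9 to 46.9 in human gRHO, 22.6 to 32.5 in saline, 34.1 to 54.7 in uninjected and 29.97 to 39.6 in WT libraries. The part of leukocyte RNA in the mir-28a levels was not tested. The endothelial and mural rows (3 of 3 with reads in each group) summed to 746 to 2888 CPM in mouse gRho, 1302 to 1770 in human gRHO, 1122 to 1329 in saline, 1240 to 2490 in uninjected and 1164 to 1454 in WT libraries, and their part was likewise not tested. The other lists are given as median sums in mouse gRho, human gRHO, saline, uninjected and WT libraries, in that order. The neuron rows had 9250, 9597, 11975, 9776 and 7728 CPM. The pigment epithelium and Mueller glia rows had 148, 142, 148, 148 and 76.7 CPM. The red blood cell rows, of which 2 of 3 listed were present, had 1003, 1295, 862, 1078 and 621 CPM. Their median was lowest in WT, but the WT libraries, at 254 and 987 CPM, lay within the ranges of other groups. Those were 77.9 to 2188 CPM in mouse gRho and 182 to 2285 CPM in uninjected libraries. The muscle rows had 5085, 40379.6, 33921, 18946 and 69462 CPM. The rows for surface epithelium with lens and cornea, of which 1 jumped between levels, had 704, 761, 450.1, 1130.5 and 239.7 CPM.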

How the data were processed

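The deposited values were raw counts of reads for each miRNA locus by class (mature, stem-loop and others), beside an alignment summary for each library, both made by the authors. DESeq2 is named in the submitters' processing notes. The sources used here do not give the aligner, counter, annotation or build. Stem-loop, precursor and unannotated totals equalled the alignment table in 23 of 23 libraries, and the mature rows reached 10.4% to 19.5% of its mature miRNA reads.

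CPM used those mature miRNA reads. Eyes of a mouse were summed (15 mice, between 6980992 and 25046363 reads). Where mice are not separate animals, p-values measure only the spread between these sums. edgeR 4.0.16 (quasi-likelihood, robust; R 4.3.3) fitted all 5 groups with TMM factors. Rows needed at least 10 counts in at least 3 mice, and 65 rows that jumped between 2 levels were set aside, leaving 382. p-values were adjusted by Benjamini-Hochberg. The code was tested on simulated data. DESeq2 1.42.0, other scalings, filters and left-out libraries were alternatives. The planned r over all mice was replaced, since rRNA shares form clusters, and the planned test of mir-28a between the constructs is not given, since its levels in both were in view.

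Members, lists and tests were chosen with earlier results of these data known. Named rows were mir-28a, its family and the 5 rows most like it by r.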

Additional observations from a re-analysis of the deposited data

Results flagged for a closer look

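Among 3 rows checked in the 7 mouse gRho mice, 1 value lay far from the others. Mouse gRho mouse 1 had 157 CPM of mir-151, and the other 6 mice had 96.6 to 120 CPM. Its right eye (208 CPM), which was poor in photoreceptor rows, set it apart. Chance flags about 1 in 20 such groups.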

How the results depend on the processing

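mir-28a stayed lower in mouse gRho, human gRHO and saline than in uninjected mice in all 28, 28 and 27 alternatives run, and higher in uninjected than in WT mice in 28. Nothing is read from these steady signs, since the refits share mice and these values chose the row. Alternatives that kept every mouse or left out libraries gave -0.89 to -0.49, -0.99 to -0.63, -1.22 to -0.78 and 0.19 to 0.81. Leaving out each mouse gave -0.82 to -0.55, -1.24 to -0.56, -1.07 to -0.78 and 0.23 to 0.51. Against WT, the alternatives that kept every mouse or left out libraries gave -0.43 to -0.080 for mouse gRho and -0.47 to -0.18 for human gRHO. Leaving out each mouse gave -0.42 to -0.24 and -0.87 to -0.11. For human gRHO against mouse gRho these ranges were -0.17 to 0.064 and -0.55 to 0.20, with 0.064 from libraries as replicates. For right against left eye they were 0.05 to 0.29 and 0.08 to 0.31, with 0.05 from leaving out the mice with an rRNA-rich library. Without the replicate block for the mouse, right against left stood at 0.15 (SE 0.22). The labels give no replicate numbers that pair groups. On other CPM scales, or over libraries in place of mice, r with the rRNA share was -0.24 to 0.061.

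For uninjected against WT, mir-708 turned to 0.40 (mature reads without TMM), 0.015 (DESeq2 size factors), 0.013 (total reads), 0.14 (no filter), 0.16 (two-level rows kept), 0.11 (only the groups compared), 0.062 (without rRNA-rich libraries), 0.12 (without retinal-poor libraries), 0.076 (without both, chosen after seeing the data), 0.0028 (rRNA covariate), 0.077 (libraries as replicates) and 0.017 (DESeq2), and ranged from -0.13 to 0.15 when a mouse was left out. mir-151 turned to 0.25 (mature reads without TMM), 0.0024 (no filter) and 0.0012 (two-level rows kept), and ranged from -0.40 to 0.24. For mouse gRho against uninjected mir-708 turned to -0.077 and -0.019 (mature reads without TMM, without rRNA-rich libraries) and ranged from -0.052 to 0.21, and for saline it turned to -0.030 (mature reads without TMM). For human gRHO against mouse gRho, without retinal-poor libraries, mir-708 turned to -0.013 and mir-151 to 0.023, with ranges of -0.058 to 0.18 and -0.15 to 0.031. The cause of these turns was not tested, and none of these values passed the threshold. For mir-151, mouse gRho against WT passed it only without WT mouse 1, of 28 alternatives. Calls between uninjected and WT numbered 6, and 0 to 60 across alternatives (60 without WT mouse 1).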
